A study of Mus musculus with 8 samples.

Results

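The axon guidance ligands and receptors are the genes described here, in the cerebral cortex of mice that carried the Ago2 L192P substitution on 1 allele and of wild-type mice. The members were taken by gene name from the protein-coding genes of the count table: semaphorins of classes 3 to 7, neuropilins, plexins, ephrins, Eph receptors, netrins, Dcc, the Unc5 receptors, Slits and Robos. The names gave 69 genes out of 55416 in the table, 21646 of them protein-coding. All 69 had counts and all 69 entered the test, and Efna4 was the single member with a mean normalized count under 10.

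The L192P group (genotype label AGO2_L192P/+) and the WT group had 4 libraries each. The substitution was a germline CRISPR/Cas knock-in on a C57/Bl6 background, carried in all cells, and every L192P animal also kept 1 wild-type Ago2 allele. The labels name no treatment, and neither age nor sex stands in them. The comparison asks whether guidance transcripts were more or less abundant in L192P than in WT cortex. The labels give each library its own number within a genotype without saying what the number stands for, so the p-values measure the spread between these libraries.

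Axon guidance genes encode the cues that steer a growing axon and the receptors that read them at the growth cone. Semaphorins signal through plexins, and most secreted class 3 semaphorins need a neuropilin as co-receptor. Netrins attract through Dcc and repel through Unc5 receptors, Slits repel through Robos, and ephrins and Eph receptors, both held at the membrane, signal between touching cells. In the mature brain many of these genes remain active and are known for roles at synapses, on blood vessels and in glia. Argonaute 2, the product of Ago2, is loaded with a miRNA and represses mRNAs whose 3′ UTRs match it.

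Polyadenylated RNA was sequenced and counted per gene. The L192P libraries held between 20396357 and 25579982 counts and the WT libraries between 21369237 and 43575900. Ago2 itself lay between 2222 and 2398 normalized counts (counts divided by a size factor per library) in L192P and between 2083 and 2380.3 in WT, with a log2 fold change of 0.03 (SE 0.06, DESeq2 adjusted p = 0.968). The counts do not tell the alleles of Ago2 apart. Replicate 1 of both genotypes stood apart on a list of sex-linked genes. The female marker Xist had 0.934 normalized counts in L192P replicate 1 and 1.82 in WT replicate 1, beside 5185 to 7257 in the other 6 libraries. The male marker Ddx3y had 1524 and 1561 in replicate 1, and 0 in the other 6 libraries, as had Uty, Kdm5d and Eif2s3y. On these genes the libraries numbered 1 read as male and the other 6 as female. The counts of called genes and the fold changes of the named genes other than Efna4 were therefore also computed on those 6.

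Of the 69 guidance genes, 4 passed the test, which is 5.8% of them, beside 1.36% of the 18627 genes tested. Ntn1, Nrp2 and Robo1 were higher in L192P (4.35% of the members, beside 0.789% of all genes), and Sema7a was lower (1.45%, beside 0.569%). A gene was called when the Benjamini-Hochberg adjusted p of DESeq2 was under 0.05 over all genes tested. The members did not move as a body: 37 log2 fold changes were above 0 and 32 below it. Their median was 0.017 over the 68 members with a mean of at least 10 normalized counts, beside 0.001 over 17136 genes, and it was -0.016 without L192P replicate 3. The median size of the log2 fold change, whatever its sign, was 0.11 for the members and 0.096 for all genes. The count of called members depended on single libraries. It was 1 without L192P replicate 2, L192P replicate 3, WT replicate 2 or WT replicate 4, it was 3 without L192P replicate 4 or WT replicate 3, and it was 7 without WT replicate 1. The calls over all genes moved too, from 253 to between 112 and 156 in the fits with 1 member called, to 157 and 127 in those with 3, and to 496 without WT replicate 1.

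Wider criteria took in more members. At an unadjusted p under 0.05 there were 15 members (21.7%), 10 higher and 5 lower, beside 9.44% of all genes. In 5 members every L192P library was above every WT library (7.25%, beside 3.01% of all genes), and these were Efnb1, Nrp2, Ntn1, Robo1 and Sema3d. In 3 members every L192P library was below every WT library (4.35%, beside 2.96%), and these were Ephb6, Sema7a and Slit3. When the replicate number was added to DESeq2 as a block, 8 of the 62 members that received an adjusted p were called (12.9%), beside 4.25% of all genes. These were the 4 already named together with Plxnc1 and Unc5d, which were higher, and Epha4 and Ephb6, which were lower.

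The quasi-likelihood test of edgeR without the block called 0 members, beside 0.314% of all genes. limma-voom likewise called 0, beside 0.266%. At an unadjusted p under 0.05, edgeR had 15 members (21.7%) and limma-voom 16 (23.2%). The share of all genes at that threshold was not computed in either of these fits. With the block, edgeR called 8 members, beside 3.04% of all genes, and here Efnb1 stood in the place of Ephb6. DESeq2 on the 6 libraries without replicate 1 called 5 members, beside 3.46% of all genes: Ntn1, Nrp2, Sema7a, Ephb6 and Epha5, of which Epha5 is named after its values were seen.

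**Figure D1:**
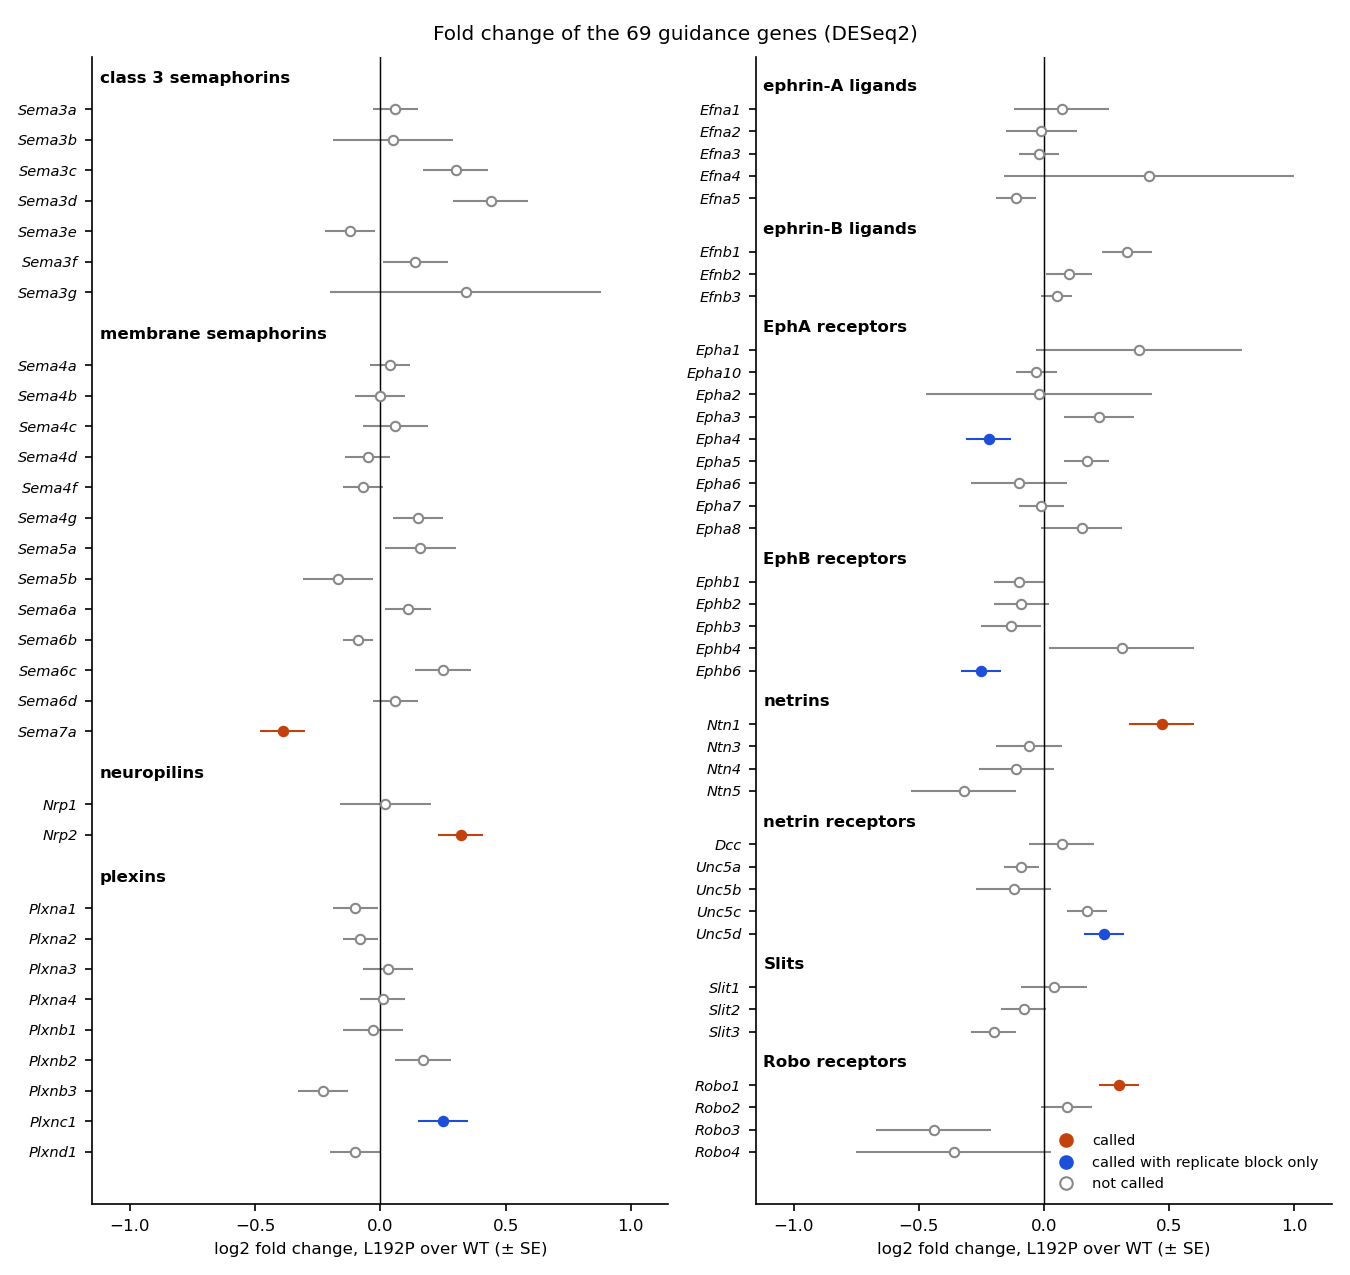
Log2 fold change of L192P over WT with its standard error from DESeq2, for each of the 69 guidance genes grouped by class (4 libraries per genotype). Filled orange points are the 4 called genes, filled blue points the 4 called only with the replicate block, and most of the remaining genes lie close to 0, with wide bars for sparsely counted genes such as Efna4 and Sema3g.

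The guidance genes differed widely in level. Genes were set beside each other as normalized counts per kilobase of exon, with all annotated exons of a gene merged. A gene with many annotated transcripts can come out lower on this scale. WT means ran from 2.86 for Sema3g to 1476 for Sema7a. Sema7a, a semaphorin held to the membrane by a lipid anchor, alone made up 52.3% of the summed WT level of the 13 membrane semaphorins. The next most abundant member was Efnb3, an ephrin-B ligand known as a midline barrier in the spinal cord, at 1013 ± 47.0 per kilobase (SD, n = 4) in WT. Among the receptors, Epha4 stood at 507 ± 45.6, Unc5a at 406 ± 35.3 and Ephb6, an Eph receptor without kinase activity, at 352 ± 31.4. Efna3, the leading ephrin-A ligand, was at 399 ± 33.2 and differed from Unc5a by less than their spread, whereas Epha4 stood above both by more than its SD.

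Secreted cues were less abundant. The leading class 3 semaphorin was Sema3e, whose receptor is Plxnd1, at 63.1 ± 5.33 per kilobase in WT. Slit1 led the Slits at 125 ± 18.1, and Ntn4, a netrin found in basement membranes, led the netrins at 49.0 ± 6.04, beside 48.8 ± 6.59 for Ntn3. Among the receptors of secreted cues, Plxnd1 led the plexins at 248 ± 36.2, Robo2 the Robos at 106 ± 8.79 and Nrp2 the neuropilins at 62.0 ± 4.80. None of the class leaders other than Sema7a and Nrp2 was called by DESeq2, and of the rest, Epha4 and Ephb6 had an unadjusted p under 0.05.

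**Figure D2:**
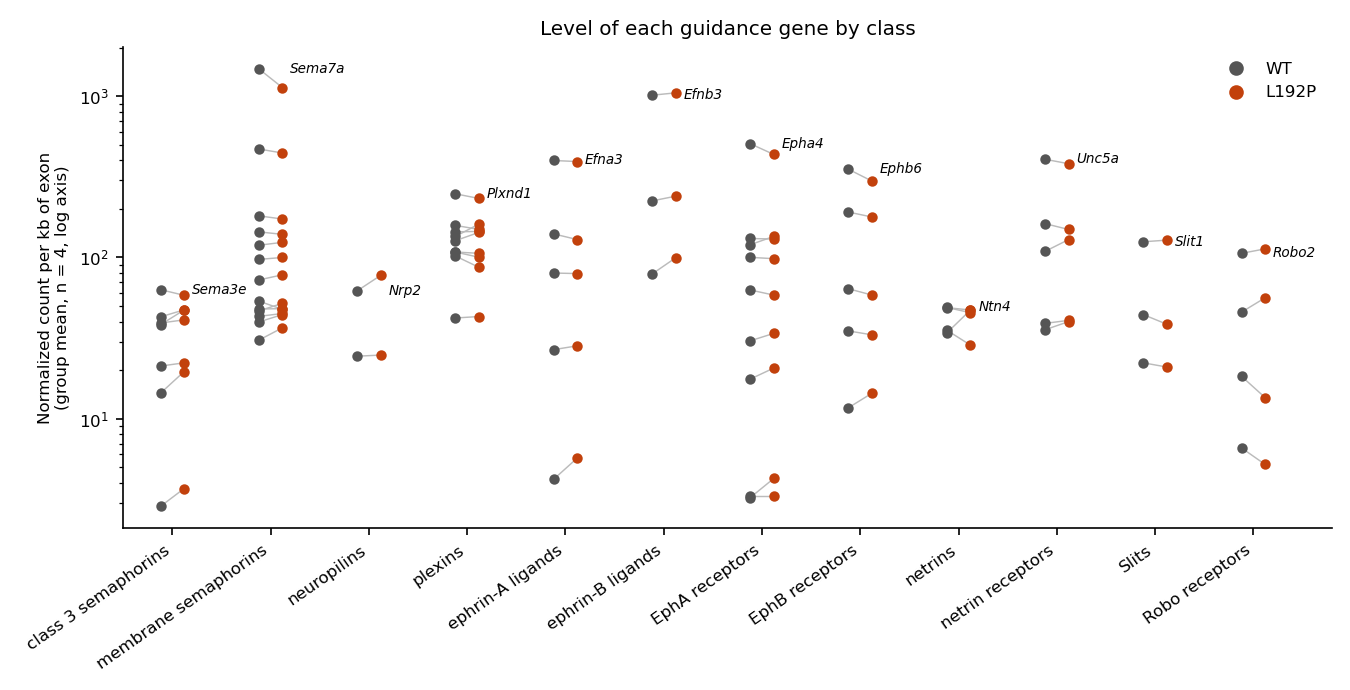
Mean normalized count per kilobase of exon (log axis, n = 4 libraries) for each guidance gene in WT and L192P, with lines joining the 2 means of a gene and the most abundant gene of each class named. Sema7a and Efnb3 lie at the top in both genotypes, and most lines are nearly flat.

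Summed over a class, the level per kilobase separated the genotypes for the neuropilins alone. The neuropilin sum was 102 ± 8.62 in L192P and 86.4 ± 8.69 in WT, and Nrp2 made up 71.8% of the WT level. The membrane semaphorins summed to 2460 ± 87.9 in L192P and 2822 ± 216 in WT, where the L192P libraries ran from 2380.2 to 2585 and WT replicate 1, at 2521, lay among them. The EphB receptors summed to 581 ± 13.0 and 654 ± 58.6, and here too WT replicate 1 lay inside the L192P range. The other 9 classes also overlapped. The ephrin-B ligands summed to 1387 ± 29.8 in L192P and 1316 ± 34.1 in WT, where WT replicate 3 (1365) was just above L192P replicate 4 (1359). The plexins were at 1166 ± 37.4 and 1172 ± 70.3 and the netrin receptors at 740 ± 21.0 and 751 ± 30.5.

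Sema7a was the called member with the smallest adjusted p. Its normalized counts were 3604, 3720.1, 3545 and 4137 in L192P replicates 1 to 4, and 4141, 5327, 4934 and 5205 in WT replicates 1 to 4. The groups did not overlap, although L192P replicate 4 and WT replicate 1 were almost level. The means were 3752 ± 267 and 4902 ± 533, a log2 fold change of -0.39 (SE 0.09, 95% interval -0.55 to -0.22, DESeq2 adjusted p = 0.00183), so Sema7a fell by 23.5%. Each same-numbered pair showed it, with log2 differences of -0.20, -0.52, -0.48 and -0.33. With the replicate block the adjusted p was 4.34e-08 in DESeq2 and 0.00278 in edgeR, whereas edgeR without the block gave 0.0701. A two-sided exact permutation test on the library values gave p = 0.0286, the smallest that 4 libraries against 4 allow. Groups that do not overlap always give this value, so for Sema7a, Nrp2, Robo1 and Ntn1 it only restates the separation. Shuffling within the 4 same-numbered pairs could give no two-sided p under 0.125, here or for Nrp2, Robo1 and Ntn1. Sema7a lies at chr9:57847375-57870151 on the plus strand of GRCm39.

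Plxnc1 encodes the plexin that binds Sema7a, and its values lay on the opposite side. L192P replicates 1 to 4 had 1482, 1351, 1169 and 1552 normalized counts of Plxnc1, and WT replicates 1 to 4 had 1329, 1079, 1072 and 1178. The groups overlapped, because L192P replicate 3 was below WT replicates 1 and 4, but in each of the 4 same-numbered pairs the L192P library was the higher one. The log2 fold change of Plxnc1 was 0.25 (SE 0.10), with a DESeq2 adjusted p of 0.276 without the replicate block and 0.0247 with it. The same block put the edgeR adjusted p at 0.0358, from 0.335 without it.

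The other membrane semaphorins showed no call. Of the 13, 8 had a log2 fold change above 0 and 5 below it, and Sema6c had an unadjusted p under 0.05. Sema6c had 379, 394, 416 and 386 normalized counts in L192P and 285, 344, 389 and 303 in WT, with a DESeq2 adjusted p of 0.394. The widely expressed Sema6b, a ligand of class A plexins, was at 2982 ± 77.4 in L192P and 3159.9 ± 204 in WT, with a log2 fold change of -0.09 (SE 0.06, adjusted p = 0.772 in DESeq2).

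Nrp2, the neuropilin that binds Sema3c and Sema3f, was higher in L192P. It had 845, 907, 973 and 999 normalized counts in the L192P libraries and 803, 701, 786 and 691 in the WT libraries, so that the lowest L192P library, replicate 1, stood just above the highest WT library, also replicate 1. The means of 931 ± 69.4 and 745 ± 57.7 gave a log2 fold change of 0.32 (SE 0.09, 95% interval 0.15 to 0.49, DESeq2 adjusted p = 0.023). The exact two-sided permutation p was 0.0286. Nrp2 is at chr1:62742444-62857854 on the plus strand of GRCm39. Nrp1, the neuropilin of Sema3a and a co-receptor for the vascular growth factor VEGF, had means of 378 ± 107 and 373 ± 62.7, a log2 fold change of 0.02 with a 95% interval from -0.32 to 0.37 that includes the estimate for Nrp2. Whether Nrp1 and Nrp2 differed in response was not tested.

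The secreted class 3 semaphorins included no called gene. Sema3d had 139, 174, 209 and 181 normalized counts in L192P and 126, 132, 134 and 125 in WT. Every L192P library was above every WT library, and the WT values were close together. The log2 fold change of Sema3d was 0.44 (SE 0.15), with a DESeq2 adjusted p of 0.152, and it was called only without L192P replicate 1, at 0.0499. Sema3c, a ligand for Nrp2 and Plxnd1, had 361, 397, 348 and 437 in L192P and 362, 295, 259 and 337 in WT, which overlapped (log2 fold change 0.30, SE 0.13, DESeq2 adjusted p = 0.327). The leader of the class, Sema3e, had a log2 fold change of -0.12 (SE 0.10, DESeq2 adjusted p = 0.816).

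Of the 9 plexins, the signalling receptors of semaphorins, 4 had a log2 fold change above 0 and 5 below it. Plxnb3, which is bound by Sema5a and sits on the X chromosome, had 521, 641, 559 and 561 normalized counts in L192P and 566, 706, 693 and 712 in WT. WT replicate 1 was far under the other 3 WT libraries and lay among the L192P values. The log2 fold change of Plxnb3 was -0.23 (SE 0.10, DESeq2 adjusted p = 0.372), and the lowest adjusted p among 18 other fits was 0.0502. Plxnd1, a plexin of blood vessels and of some neurons, had a log2 fold change of -0.10 (SE 0.10, adjusted p = 0.875 in DESeq2).

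Robo1, a receptor for Slits, was the called member of the Slit and Robo system. L192P replicates 1 to 4 had 1058, 1049, 1034 and 945 normalized counts, and WT replicates 1 to 4 had 834, 749, 909 and 835. The lowest L192P library, replicate 4, was above the highest WT library, replicate 3. The means of 1022 ± 51.9 and 832 ± 65.5 gave a log2 fold change of 0.30 (SE 0.08, 95% interval 0.14 to 0.46, DESeq2 adjusted p = 0.023) and an exact two-sided permutation p of 0.0286. Robo1 is at chr16:72105194-72844378 on the plus strand of GRCm39.

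The other Robo genes gave no call. Robo2, the most abundant of them, had 3144, 2339.7, 2441 and 2791 normalized counts in L192P and 2577, 2295, 2433 and 2784 in WT, so that replicates 2, 3 and 4 were close to their WT counterparts and only replicate 1 was apart. Its log2 fold change was 0.09 (SE 0.10, 95% interval -0.10 to 0.28). Robo3, a receptor known from midline crossing in the hindbrain, was at 100.2 ± 19.3 and 136 ± 44.0, and Robo4, a receptor of endothelial cells, at 27.6 ± 15.4 and 34.9 ± 11.4. The spread of Robo3 and Robo4 was wide, and their DESeq2 adjusted p values were 0.553 and 0.895.

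The Slits are the ligands of Robo1 and Robo2. Slit3 had 538, 432, 499 and 537 normalized counts in L192P and 569, 556, 601 and 577 in WT, with every L192P library below every WT library. The log2 fold change of Slit3 was -0.20 (SE 0.09), and it was not called (DESeq2 adjusted p = 0.45, and 0.334 with the replicate block). Slit1 had a log2 fold change of 0.04 (SE 0.13) and Slit2 of -0.08 (SE 0.09). Slit1 was highest in replicate 3 of both genotypes, at 1479 in L192P and 1347 in WT.

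Netrin 1, encoded by Ntn1, is the founding member of its family and binds Dcc and the Unc5 receptors. Its normalized counts were 265, 341, 345 and 285 in L192P and 222, 209.6, 252 and 207 in WT. The lowest L192P library, replicate 1, was above the highest WT library, replicate 3. The means of 309 ± 40.0 and 223 ± 20.6 gave the largest log2 fold change among the called members, 0.47 (SE 0.13, 95% interval 0.22 to 0.72, DESeq2 adjusted p = 0.0212), and an exact two-sided permutation p of 0.0286. On the scale per kilobase Ntn1 was at 34.0 ± 3.14 in WT, within the spread of Ntn5 at 35.4 ± 7.44, and at 47.1 ± 6.10 in L192P, beside 47.2 for Ntn3, 45.4 for Ntn4 and 28.6 for Ntn5. Ntn3, Ntn4 and Ntn5 had log2 fold changes of -0.06, -0.11 and -0.32, each with a 95% interval that includes 0. Ntn1 is at chr11:68100190-68291662 on the minus strand of GRCm39.

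Among the netrin receptors, Unc5d had 1241, 1181, 1082 and 1269.7 normalized counts in L192P and 1109, 976, 923 and 1029 in WT. The groups overlapped through L192P replicate 3 and WT replicate 1, and each L192P library was above its same-numbered WT library. The log2 fold change of Unc5d, a receptor expressed in layers of the upper cortex, was 0.24 (SE 0.08), with a DESeq2 adjusted p of 0.139 without the replicate block and 0.0293 with it. Unc5c had 762, 775, 811 and 712 in L192P and 675, 616, 732 and 704 in WT (log2 fold change 0.17, SE 0.08, DESeq2 adjusted p = 0.498). Unc5a, the most abundant netrin receptor, had a log2 fold change of -0.09 (SE 0.07, DESeq2 adjusted p = 0.812). Dcc, through which netrin 1 attracts axons, was at 538 ± 63.2 and 515 ± 92.5, a log2 fold change of 0.07 with a 95% interval from -0.19 to 0.33.

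**Figure D3:**
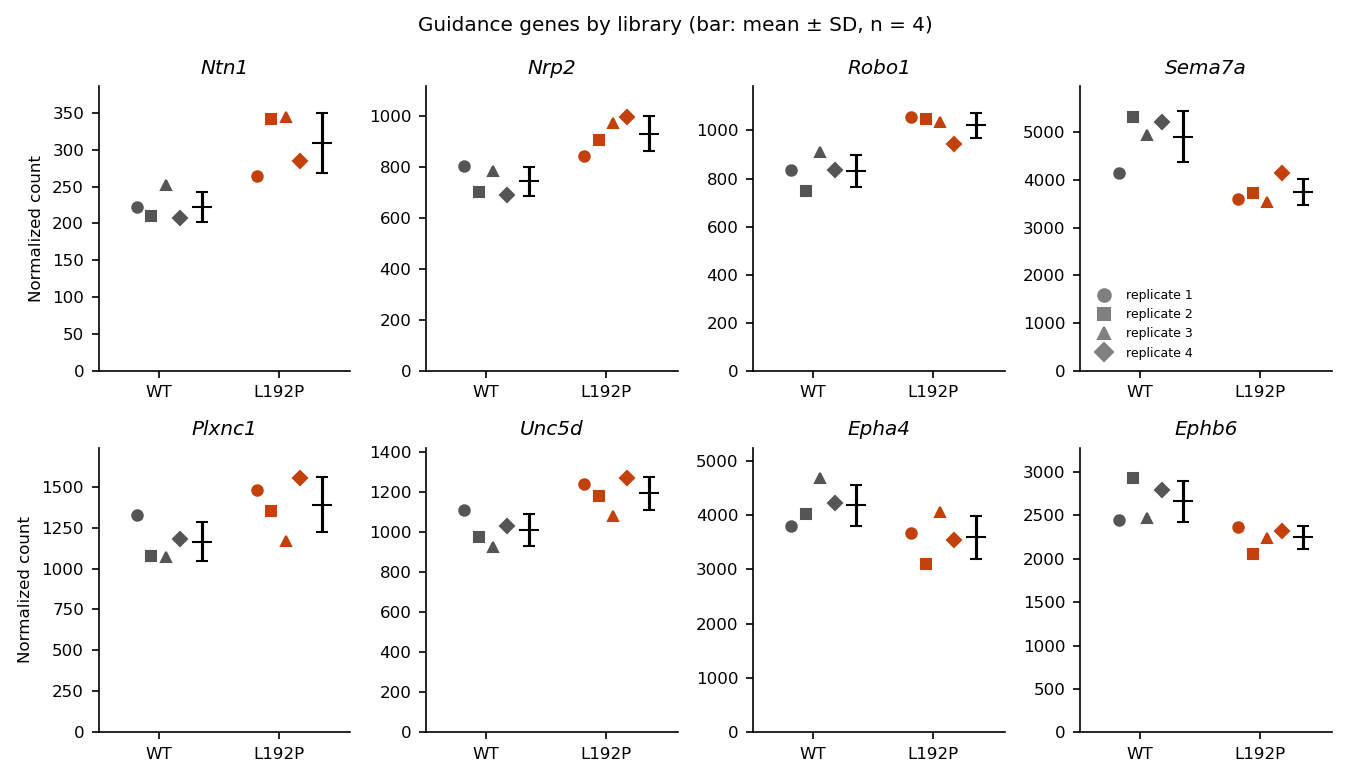
Normalized counts of 8 guidance genes in the 4 WT and the 4 L192P libraries, with marker shapes for the replicate number and bars for the mean ± SD. Ntn1, Nrp2, Robo1 and Sema7a separate the genotypes, whereas Plxnc1, Unc5d and Epha4 overlap between groups and differ in the same direction within each same-numbered pair.

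No ephrin or Eph receptor was called by DESeq2 without the block, and 3 had an unadjusted p under 0.05. Ephb6 had 2361, 2057, 2244 and 2319 normalized counts in L192P and 2449, 2929.5, 2473 and 2789.7 in WT, with every L192P library below every WT library. Its log2 fold change was -0.25 (SE 0.08), with a DESeq2 adjusted p of 0.0951, of 0.0245 with the replicate block and of 0.0761 in edgeR with the block. Epha4, a receptor that binds ephrins of both classes, had 3664, 3089.6, 4056 and 3536 in L192P and 3799, 4011, 4679 and 4214 in WT. The groups of Epha4 overlapped, with replicate 3 the highest of each group, and the L192P library was the lower in each of the 4 same-numbered pairs. Its log2 fold change was -0.22 (SE 0.09), and its DESeq2 adjusted p was 0.311 without the block and 0.00748 with it.

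Efnb1, an ephrin-B ligand on the X chromosome, had 385, 409, 380.5 and 407 normalized counts in L192P and 278, 351, 320.5 and 306 in WT. Every L192P library was above every WT library, and the L192P values were close together. The log2 fold change of Efnb1 was 0.33 (SE 0.10), with a DESeq2 adjusted p of 0.0964, of 0.088 with the replicate block and of 0.0424 in edgeR with the block. Efnb2, known from arteries, and Efnb3 had log2 fold changes of 0.10 (SE 0.09) and 0.05 (SE 0.06). For the abundant Efnb3 the 95% interval ran from -0.07 to 0.17.

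The 5 ephrin-A ligands, which are held to the membrane by a lipid anchor, had DESeq2 adjusted p values of 0.765 or more. Efna3 was at 974 ± 65.9 and 989 ± 82.2, and Efna5, known from the mapping of retinal axons, at 678 ± 41.1 and 735 ± 42.2. Efna4 had between 4.35 and 13.1 normalized counts per library, a depth at which its log2 fold change of 0.42 had a 95% interval from -0.72 to 1.57. Of the 9 EphA receptors, 4 had a log2 fold change above 0 and 5 below it, and of the 5 EphB receptors, 4 were below 0. Epha5 had 2728, 2702, 2809.9 and 2904 in L192P and 2848, 2105, 2589 and 2385 in WT, and only WT replicate 1 lay among the L192P values (log2 fold change 0.17, SE 0.09, adjusted p = 0.543 in DESeq2).

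The calls differed in how far they rested on single libraries. Sema7a was called without each of the 8 libraries in turn, with adjusted p values from DESeq2 between 2.2e-08 and 0.0305. Ntn1 lost its call without L192P replicate 2 (0.181), L192P replicate 3 (0.177), WT replicate 2 (0.159) or WT replicate 4 (0.157). Nrp2 lost it without L192P replicate 2 (0.0881), L192P replicate 3 (0.149), L192P replicate 4 (0.167), WT replicate 2 (0.181), WT replicate 3 (0.0626) or WT replicate 4 (0.194). Robo1 lost it without L192P replicate 1 (0.0861), L192P replicate 2 (0.153), L192P replicate 3 (0.125), WT replicate 2 (0.199) or WT replicate 4 (0.126), and also on the 6 libraries without replicate 1 (0.0759). Without WT replicate 1, Ephb6 (0.0159), Unc5d (0.0255) and Plxnc1 (0.0329) were called as well. In edgeR without the block the adjusted p values of Ntn1, Nrp2 and Robo1 were 0.129, 0.123 and 0.117. The log2 fold changes moved less than the calls: over 18 other fits they ran from 0.42 to 0.54 for Ntn1, 0.29 to 0.40 for Nrp2, 0.25 to 0.35 for Robo1 and -0.46 to -0.34 for Sema7a.

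**Figure D4:**
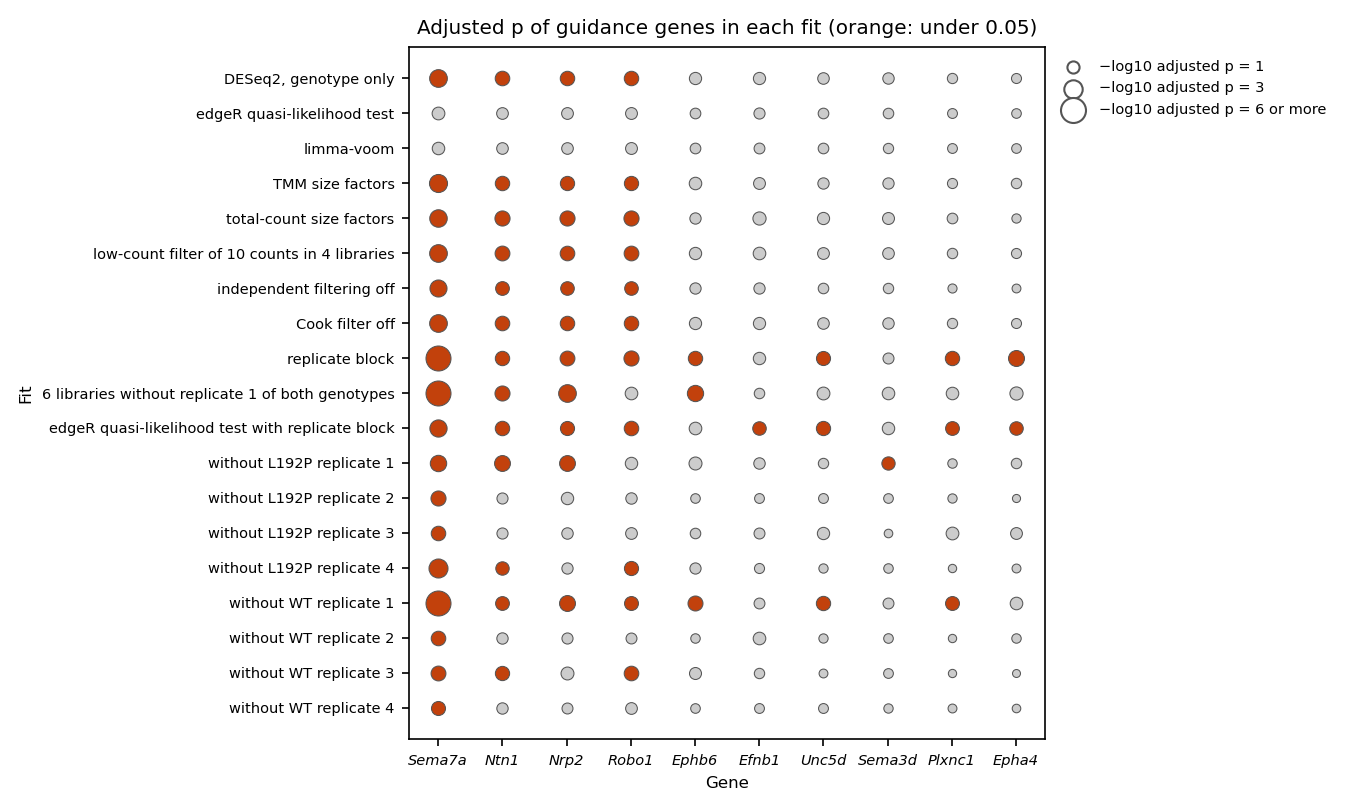
Adjusted p of 10 guidance genes in each fit, with orange circles where it is under 0.05 and the area of a circle growing with −log10 of the adjusted p. Sema7a is called in 16 of the 18 other fits, Ntn1 in 12, Nrp2 in 10 and Robo1 in 10.

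The libraries numbered 1 were also set beside the others of their genotype. In 1 member, Efna3, replicate 1 was the highest library of both genotypes (1.45%, beside 13.5% of all genes tested), and in 13 members it was the lowest of both (18.8%, beside 14.2%). The 13 include Plxnb1, Plxnb2, Plxnb3, Ephb1, Ephb4, Unc5b and Ntn4. Among the members called by DESeq2, none was at the same end of both groups in replicate 1.

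Because Argonaute 2 acts through matches between a miRNA and a 3′ UTR, the 3′ UTRs of the members were searched for sites of 10 miRNAs: miR-92a-3p, miR-29a-3p and miR-5121, which are among those the study discussed, let-7a, miRNAs abundant in neurons, and miR-218, whose genes lie inside members. All 10 were found in the RefSeq miRNA table (GRCm38.p6), and no seed is shared between them. The mature sequences below are those with a site in Robo1, Ntn1, Unc5d or Plxnc1 that is shown after them, and capitals mark the seed, bases 2 to 8.
miR-218-5p: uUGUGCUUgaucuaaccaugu
miR-92a-3p: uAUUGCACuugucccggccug
miR-29a-3p: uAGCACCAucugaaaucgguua
let-7a-5p: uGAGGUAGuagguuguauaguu
miR-5121: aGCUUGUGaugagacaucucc

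A site was an exact match of 7 bases, opposite to the seed, on the mRNA strand of the canonical 3′ UTR in GENCODE M39. Robo1, with a 3′ UTR of 3128 bases, held 7 sites for 6 of the 10 miRNAs, which was the most among the 8 members called with or without the block. Sema7a (1264 bases), Nrp2 (3058 bases) and Ephb6 (205 bases) held none, Epha4 held 1, Ntn1 2, and Unc5d and Plxnc1 4 each. The sites below are 24-base windows of the mRNA strand with the match in capitals, and their positions are on GRCm39: Robo1 at chr16:72842224-72842247, chr16:72841335-72841358 and chr16:72842600-72842623 (plus strand), Plxnc1 at chr10:94628729-94628752, Ntn1 at chr11:68103579-68103602 and Unc5d at chr8:29141383-29141406 (minus strand).
Robo1, miR-218-5p: ttttggttttaaAAGCACAatcac
Robo1, miR-92a-3p: tgaaattgttcaGTGCAATcagaa
Robo1, miR-29a-3p: tgactttataatTGGTGCTatttg
Plxnc1, miR-218-5p: cagtctccacttAAGCACAatgat
Ntn1, let-7a-5p: gacaagacatagCTACCTCacggc
Unc5d, miR-5121: ctgtagattattCACAAGCttcat

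The match for miR-218-5p, AAGCACA, was in 20 of the 69 members (29.0%), beside 17.3% of the 14852 tested protein-coding genes with a 3′ UTR. Members have long 3′ UTRs, with a median of 1748 bases beside 1393, and the share among genes whose 3′ UTR was 0.8 to 1.25 times as long as a member's was 21.9%. The members with the match include Robo1, Robo2, Robo3, Slit2, Efnb1, Efnb2 and Sema3d, and the median log2 fold change was 0.093 with the match and -0.011 without it. The match for miR-138-5p, CACCAGC, was in 22 members (31.9%), beside 15.7% of all and 19.6% at similar length, with medians of 0.013 and 0.023. Medians with and without the match were -0.081 and 0.038 for miR-5121, -0.033 and 0.05 for miR-125b-5p, and differed by less for the other 6 miRNAs. For miR-92a-3p (GTGCAAT) the share was 5.8%, beside 8.08% and 10.2%. For miR-29a-3p (TGGTGCT) it was 14.5%, beside 16.7% and 20.8%, and for miR-5121 (CACAAGC) it was 14.5%, beside 11.2% and 14.3%. A match does not show that a miRNA acts on the gene, and no miRNA was measured in these libraries.

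The other 5 miRNAs gave shares from 10.1% for miR-26a-5p to 24.6% for miR-128-3p, whose shares at similar length were 15.4% and 30.2%. For let-7a-5p (CTACCTC) the share was 20.3%, beside 11.6% of all and 14.2% at similar length. For miR-9-5p it was 17.4%, beside 19.5% at similar length, and for miR-125b-5p 18.8%, beside 21.1%. Matches for both miR-218-5p and miR-92a-3p were found in Robo1, Robo2 and Ephb2. Of all 3′ UTRs of a length similar to that of Robo1, 29.1% held a match for miR-218-5p. The gene Mir218-1 lies inside Slit2, at chr5:48381284-48381393, and Mir218-2 inside Slit3, at chr11:35507643-35507752, each on the strand of its host (GRCm39). The normalized counts of Slit2 were 674 ± 44.2 in L192P and 714 ± 53.5 in WT, and those of Slit3 were 502 ± 49.5 and 576 ± 18.6.

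Beyond the 69 members, 113 other genes of the guidance system were listed by role, and 112 were tested. DESeq2 called 1 of them (0.893%, under the 1.36% of all genes), Bmp7, which encodes a bone morphogenetic protein that repels commissural axons in the spinal cord. Bmp7 had 288, 364, 377 and 304 normalized counts in L192P and 233, 258, 219 and 225 in WT, with every L192P library above every WT library (log2 fold change 0.50, SE 0.12, DESeq2 adjusted p = 0.00881). Bmp7 lost its call without L192P replicate 2 (0.0925), L192P replicate 3 (0.104), WT replicate 3 (0.0798) or WT replicate 4 (0.0736). In edgeR without the block its adjusted p was 0.0881.

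By role, the 41 other ligands, receptors and adhesion molecules gave that 1 call. The 64 intracellular effectors gave 0 calls by DESeq2 and by edgeR, with 9 at an unadjusted p under 0.05 in each. The share of all genes at that threshold was 9.44% in DESeq2 and was not computed for edgeR. The 8 genes of proteolytic processing also gave 0 calls by both, with 0 and 1 at an unadjusted p under 0.05. Median log2 fold changes of the 3 lists were -0.007, -0.005 and -0.03. With the replicate block DESeq2 called 7 of the 108 listed genes with an adjusted p (6.48%), beside 4.25% of all genes. Higher were Bmp7, Ntng1, Pak3 and Sos1, and lower were Mical2, Ngef and Gipc1, of which all but Bmp7 are named after their values were seen. Mical2, a relative of the enzyme that acts on actin behind plexins, was at 7546 ± 686 in L192P and 8824 ± 560 in WT. Ngef, the guanine exchange factor ephexin behind Epha4, was at 9351 ± 1001 and 10856 ± 1271.

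Lists of markers showed which cell types and neighbouring regions were represented in each library. In bulk tissue, fewer cells of a type and less RNA per cell cannot be told apart. The 9 markers of cortical excitatory neurons, the defining list for this tissue, were all present and summed to between 40162 and 44995 normalized counts in L192P and between 45648 and 47665 in WT, without overlap. DESeq2 called 0 of these 9 and edgeR 0. In each, 3 had an unadjusted p under 0.05, beside 9.44% of all genes in DESeq2 and a share not computed for edgeR. With the replicate block DESeq2 called 3 as lower (Slc17a7, Neurod6 and Tbr1), beside 4.25% of all genes. The 7 markers of striatal projection neurons used here summed to 24643 to 30307 in L192P and 31668 to 38070.3 in WT, again without overlap, and DESeq2 called Penk as lower, and 4 of the 7 with the replicate block. The 6 thalamic markers summed to 1891 to 4858 in L192P and 1704 to 2133 in WT, with Gbx2 higher, and L192P replicates 3 and 1 held the most. The 7 hypothalamic markers summed to 217 to 1231 and 119 to 259, with Avp and Oxt higher. With the replicate block DESeq2 called Slc17a6 of the thalamic list and Avp and Trh of the hypothalamic list as higher. Gbx2 and Oxt received no adjusted p in that fit. Of the markers named here and in the next paragraph without the block, edgeR called Avp, Oxt and Calb2, and gave adjusted p values of 0.055 for Penk, 0.0823 for Gbx2, 0.155 for Gad2 and 0.187 for Slc6a13.

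Of the remaining neuronal lists, the 6 hippocampal markers summed to 2496 to 3932 in L192P and 1657 to 3011 in WT, with Calb2 higher (1182 ± 187 and 548 ± 199) and log2 fold changes of -0.38 to 0.09 for the other 5. The 6 interneuron markers summed to 30739 to 34401 and 30950.2 to 33670.5, with Gad2 higher, and with the replicate block Pvalb and Lamp5 were lower. The 6 meningeal markers summed to 927 to 1651 and 776 to 1098, with Slc6a13 higher, and with the replicate block both Slc6a13 and Col1a2 were higher. The 7 endothelial, 5 mural, 5 microglial and 5 choroid plexus markers overlapped between genotypes, from 375 to 1334 and 431 to 1099 for endothelial cells, 1174 to 2125 and 1284 to 2013 for mural cells, 3180.2 to 5670.5 and 3301 to 4163 for microglia, and 16523 to 37950.1 and 14279.9 to 32412 for choroid plexus. Astrocyte (13335 to 21025 and 14704 to 19944), oligodendrocyte (77884 to 110686 and 80137 to 114133), precursor (1858 to 2687 and 1991 to 2884) and erythroid sums (1374 to 3229.6 and 1543 to 2371) overlapped too. With the replicate block DESeq2 called Slco1a4 of the endothelial list and Cx3cr1 of the microglial list as higher. No listed marker was at 0 in all 8 libraries.

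The called members can be set beside those sums by library. Ntn1 was highest in L192P replicate 3, the library with the highest thalamic and hypothalamic sums. Nrp2 was highest in L192P replicate 4 and Robo1 in L192P replicate 1. In L192P replicate 2, Ntn1 had 341, Nrp2 907 and Robo1 1049 normalized counts, each above every WT library. The thalamic sum of 2075 and the hypothalamic sum of 217 in that library were within the WT ranges. Of their called markers, Gbx2 (15.9, beside 4.35 to 9.37 in WT) and Oxt (19.3, beside 2.73 to 7.6) were above every WT library. Avp (19.3, beside 10.5 to 21.9) was not. The cortical excitatory sum of 41315 and the striatal sum of 30307 in L192P replicate 2 were below the WT ranges of those lists. Its meningeal sum of 1651 was the highest of all. The meningeal sums were 927, 1651, 1611 and 1225 in L192P replicates 1 to 4 and 986, 1098, 781 and 776 in WT. Ntn1 had 265, 341, 345 and 285, and 222, 209.6, 252 and 207 in the same libraries. The pathway gene Bmp7 had 288, 364, 377 and 304, and 233, 258, 219 and 225. In L192P, Ntn1, Bmp7 and the meningeal sum were all lower in replicates 1 and 4 than in replicates 2 and 3. In WT the meningeal sum and Bmp7 were highest in replicate 2 and Ntn1 in replicate 3. Sema7a was lowest in L192P replicate 3, where the cortical excitatory and striatal sums were also lowest. In L192P replicate 1, with the highest cortical sum of the group (44995), Sema7a was second lowest (3604). Within L192P it was highest (4137) in replicate 4 at a cortical sum of 41918. The part of tissue makeup in the differences of Sema7a, Ntn1, Nrp2, Robo1 and Bmp7 was not tested.

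Several named members share exon sequence with a gene on the opposite strand in the annotation, and whether the counting used strand is not given in the sources used here. This holds for Sema7a with Gm69168, Nrp2 with Gm29083, Ntn1 with Gm31954, Robo1 with Gm29908, Epha4 with Gm28386 and Ephb6 with Trpv6, so that reads of these pairs may not have been told apart. Plxnc1 overlaps Gm48718 and Ntn3 overlaps Tbc1d24, each on its own strand, and Unc5d overlaps no other exon.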

How the data were processed

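Cortical RNA of 4 L192P and 4 WT mice was sequenced as stranded polyadenylated mRNA libraries. Per the labels, the authors aligned the reads with STAR 2.7.9a to GRCm39 and counted them per gene with featureCounts 1.5.1, and they deposited raw counts for each library. The annotation release and the strand setting are not given in the sources used here. The deposited table of signal divided by DESeq2 size factors, for which the labels name version 1.40.2, was not used.

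The deposited counts were fitted over all genes with DESeq2 1.42.0 in R 4.3.3, with genotype as the only term, independent filtering at 0.05 and the Cook filter left at its default, and p-values were adjusted over all genes tested. Alternatives were edgeR 4.0.16, limma 3.58.1 (voom), TMM or total-count size factors, a filter of 10 counts in 4 libraries, no independent or Cook filter, the replicate block, 6 libraries without replicate 1, and each library left out. edgeR with the block was added after seeing the data. The fits were tested on simulated data.

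The members, the gene lists and the miRNAs were chosen with earlier results of these data known. The rule for naming took members with an adjusted or unadjusted p under 0.05, members called with the block or by edgeR, the most abundant member of each class per kilobase, members with a mean under 10, called genes of the pathway list, marker genes with their list, and Ago2. One item of a marker list is not reported here. Exon lengths, positions and 3′ UTRs came from GENCODE M39 on GRCm39.

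Same-numbered libraries deviated together from their group means (r = 0.63, 0.38, 0.23 and 0.33 over 13422 genes, beside -0.38 to 0.14 for other pairs), so the numbers were treated as pairing the libraries. Deviations from a group mean sum to 0, so a high r in some pairs lowers it in others. The pair with r = 0.63 was replicate 1, which also stood apart on the sex-linked genes. The pairing was thus read from the same data as the block fits, and what the numbers stand for was not tested. Chi-square per degree of freedom between libraries of a genotype was 5.52 to 22.6, so none was counted as a repeat. Totals of 20396357 to 43575900 counts leave members under about 20 normalized counts, such as Efna4 and Sema3g, with coarse fold changes.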

Additional observations from a re-analysis of the deposited data

Results flagged for a closer look

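Plxnb3 in WT replicate 1 had 566 normalized counts, while the other 3 WT libraries had between 693 and 712, so that the gap to the nearest of them took up 0.871 of the range of the group. This was the single distant library found among 50 groups of 4 libraries screened for the named genes, where chance alone gives about 2.5. Plxnb3 lies on the X chromosome, and L192P replicate 1 was also the lowest of its group, at 521. The libraries numbered 1 were those that read as male on the sex-linked genes.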

How the results depend on the processing

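The 4 members called by DESeq2 became 0 with edgeR and 0 with limma-voom, 8 with the replicate block and 8 with edgeR and the replicate block, a fit chosen after seeing the data. Leaving out 1 library at a time gave 1 to 7. The count was 4 with TMM or total-count size factors, with the low-count filter, and without independent or Cook filtering, and 5 on 6 libraries. The 1 called pathway gene became 0 with edgeR (16 at an unadjusted p under 0.05) and 0 with limma-voom (15), 2 with total-count size factors, 7 with the replicate block, 7 on the 6 libraries, 7 with edgeR and the block, and 0 to 9 with 1 library left out, where L192P replicate 3, WT replicate 3 or WT replicate 4 gave 0, L192P replicate 2 gave 2 and WT replicate 1 gave 9. The share of all genes at an unadjusted p under 0.05 was not computed for edgeR or limma-voom. The cause of these changes in count was not tested. The members' median ran from -0.016 to 0.032 with 1 library left out, within the spread between libraries (SD 0.038). Of 439 values of named genes under these alternatives, 391 kept their direction and side of the threshold, 30 lost a call, 13 gained one and 5 changed sign. These 5 were in genes that were not called, with 1 library left out: Efna3, from -0.07 to 0.01, and Slit1, from -0.10 to 0.14. All 30 losses were in Sema7a, Ntn1, Nrp2, Robo1 and Bmp7, which were called in 16, 12, 10, 10 and 12 of 18 other fits. Many other named genes were called in no fit, so the 391 do not measure how firm the calls were. Total-count size factors moved the median of all genes most, to 0.026. Age and sex are not in the labels, and members with few counts have wide intervals at this depth.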
